A study of Rattus norvegicus with 458 samples.

Results

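MicroRNAs (miRNAs) of 4 brain regions were compared with those of 18 non-neural tissues of the rat. The brain libraries were chosen by tissue label (Brainstem, Cerebellum, Cerebrum and Hippocampus) and numbered 37 of the 215 libraries of the series, and the 158 libraries set against them carried every other tissue label except dorsal root ganglion. The libraries came from 10 naive Sprague Dawley rats, 5 male and 5 female, aged 12 to 13 weeks, that received no treatment. The same rats gave nearly all tissues, so libraries of 1 rat are not independent animals. Brain RNA came from whole dissected regions, which hold neurons, glia, vessels and choroid plexus in unknown shares, so fewer cells of a type and less RNA per cell cannot be told apart.

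A miRNA is a short RNA, cut from a hairpin into a 5p and a 3p arm, that guides repression of messenger RNAs which pair with its seed, the bases from position 2 to position 8. Some miRNAs are made almost only by cells of the nervous system. miR-124 is the classic neuronal miRNA, miR-9 acts in neural progenitors and neurons, miR-219 and miR-338 promote the maturation of oligodendrocytes, and miR-132 and miR-212 are transcribed together in response to neuronal activity. Small RNA was sequenced, and each value below is a count for 1 miRNA name scaled to the library total, in CPM, or a log2 fold change from a model of the counts.

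The mature sequences that carry the comparison are shown here, since many results below turn on a shared seed. They are written 5′ to 3′ from RefSeq (build GRCr8), with the seed in capitals. The first 10 belong to miRNAs with the largest differences or the highest brain CPM, and the others share a seed with one of these or with each other.
miR-9a-5p: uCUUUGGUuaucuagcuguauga
miR-9a-3p: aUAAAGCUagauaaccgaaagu
miR-128-3p: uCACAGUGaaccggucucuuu
miR-138-5p: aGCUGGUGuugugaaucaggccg
miR-204-5p: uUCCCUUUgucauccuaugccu
miR-219a-2-3p: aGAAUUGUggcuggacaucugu
miR-448-3p: uUGCAUAUguaggauguccca
miR-764-3p: gAGGAGGCcauaguggcaacugu
miR-1298: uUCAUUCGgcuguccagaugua
miR-92b-3p: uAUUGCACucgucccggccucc
miR-92a-3p: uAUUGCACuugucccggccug
miR-25-3p: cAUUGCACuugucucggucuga
miR-32-5p: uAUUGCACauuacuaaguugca
miR-363-3p: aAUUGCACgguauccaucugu
miR-384-5p: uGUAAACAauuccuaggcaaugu
miR-30a-5p: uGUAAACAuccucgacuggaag
miR-132-3p: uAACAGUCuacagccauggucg
miR-212-3p: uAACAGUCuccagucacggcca
miR-124-3p, miR-124-5p and miR-3059-5p are named without a sequence. In GRCr8 miR-9a-5p has 3 loci (chr1:142849415-142849437 and chr2:15933307-15933329 and chr2:175974986-175975008, all on the plus strand), and miR-92b-3p has 1, at chr2:176931663-176931684 on the minus strand.

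Library totals lay between 2207930 and 7506562 counts in the brain and between 376401 and 17725805 in the non-neural tissues, where the testis had the fewest. The profile of 10 further libraries was that of another organ and not of their label, and these were left out of the comparison on that ground. The libraries labelled Duodenum of rats 2, 4 and 7 held miR-124-3p at 5311, 5627 and 4113 CPM, while those labelled Hippocampus of rats 2, 6 and 7 held it at 0.568, 4.05 and 2.38 CPM. The others were labelled Duodenum (rat 11), Adrenal (rat 8), Ovary (rat 11) and Uterus (rat 8). The 10 dorsal root ganglion libraries, replicate libraries of tissue pooled by sex, were also outside the comparison.

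Brain and non-neural tissues differed in most of the miRNA names that could be tested. Of 1309 names, 387 were higher in the brain (29.6%) and 512 were lower (39.1%) in edgeR's quasi-likelihood test of the mean of 4 regions against the mean of 18 tissues, at a Benjamini-Hochberg adjusted p under 0.05. The split depended on the scaling of the libraries. The share of calls that were higher was 43.0% with upper quartile scaling, 58.8% with TMM scaling and 83.8% with library totals alone, and the median log2 fold change of all names was -0.89, -0.26 and 0.66 in the same order. All 387 higher names were higher under each of these 3 scalings (29.6% of names), and 136 names were lower under each of them (10.4%). TMM and library totals move most brain values up from upper quartile scaling. That the higher calls held under them was thus likely in advance.

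A stricter call asked for a brain mean above each of the 18 tissues. It held for 83 names (6.34%), and all 83 held it under the other 2 scalings, which move most brain values up and so make this likely in advance. In 47 of them each single region also lay above each tissue (3.59% of names). With the 10 left-out libraries kept under their labels, the first count fell to 21 and the second to 0. The adrenal bore on the count as well, since 139 names lay above every other tissue when it was left out. Together the 83 names took 7.18% to 15.7% of the counts of a brain library and 0.00981% to 0.744% of those of a non-neural library, with the highest shares outside the brain in the testis.

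The neuron-enriched list of miRNAs known from neurons was higher in the brain as a whole. All 40 names tested were called higher, 25 of them above every tissue, beside 29.6% and 6.34% of all names. Their median log2 fold change was 4.58, beside -0.89 for all names tested. The list was chosen with results of these data known, so its count is a description.

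miR-124-3p ranged from 1908 to 13081 CPM in the brain (median 5627) and from 0 to 45.2 CPM elsewhere (median 1.79). Every brain library lay above every non-neural library, and the testis, at 29.3 ± 11.9 CPM (SD, n = 5), was the highest tissue outside the brain. The log2 fold change was 9.01 ± 0.202 (SE), with an edgeR adjusted p of 4.12e-97. Among the regions the cerebellum was highest (10925 to 13081 CPM) and the brainstem lowest (1908 to 3507 CPM), and these ranges did not meet. The 5p arm of the same hairpin lay between 16.0 and 69.3 CPM in the brain and at 2.06 CPM or less elsewhere, a log2 fold change of 7.75 ± 0.192 (SE).

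miR-9a-5p had the highest brain mean of the 83 names. It lay between 18611 and 45326 CPM in the brain (median 32869) and between 2.24 and 315 CPM elsewhere (median 32.3). The groups did not overlap, and the kidney medulla (label Medulla) was the highest other tissue at 243 ± 36.1 CPM (SD, n = 10). Its log2 fold change was 7.65 ± 0.132 (SE, edgeR adjusted p = 3.44e-115), and that of miR-9a-3p was 8.06 ± 0.152. Unlike miR-124-3p, miR-9a-5p was highest in the hippocampus (37278 to 45326 CPM), and miR-9a-3p differed little between regions, with a ratio of 1.33 between the highest and the lowest regional mean.

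**Figure D1:**
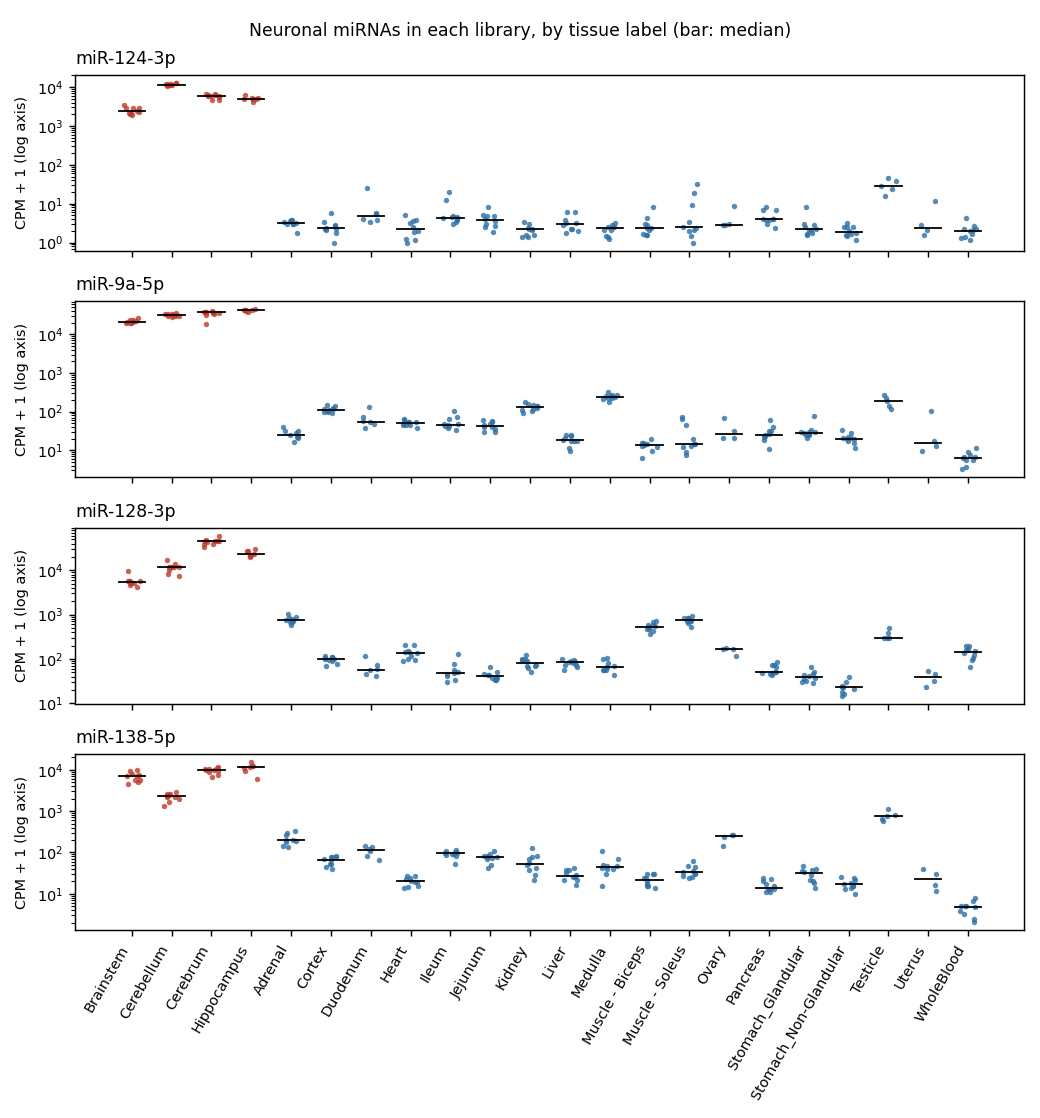
CPM plus 1 (log axis) of miR-124-3p, miR-9a-5p, miR-128-3p and miR-138-5p in each library, grouped by tissue label, with brain regions in red, non-neural tissues in blue and a bar at each median. For all 4 miRNAs the brain libraries lie above the others, and the testis is the highest non-neural tissue for miR-124-3p and miR-138-5p.

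miR-128-3p, a neuronal miRNA made from 2 loci, varied more within the brain. It lay between 4161 and 60350 CPM (median 13507), against 13.8 to 1007 CPM elsewhere (median 83.8). No library overlapped, with the adrenal (774 ± 121 CPM, SD, n = 9) next in level. The cerebrum held 44865 ± 7152 CPM and the brainstem 5688 ± 1536 CPM (SD, n = 10 each), and the log2 fold change against all tissues was 5.29 ± 0.0831 (SE, edgeR adjusted p = 1.97e-121).

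miR-138-5p, a miRNA of dendrites and synapses, ranged from 1342 to 15265 CPM in the brain (median 7332) and from 1.04 to 1134 CPM elsewhere (median 36.4). The lowest brain libraries were cerebellar and the highest other libraries were testicular, and the groups did not overlap. Its log2 fold change was 5.13 ± 0.0979 (SE, edgeR adjusted p = 1.91e-108).

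Further neuronal miRNAs were lower in level, and their distance from other tissues varied. miR-137-3p had a brain mean of 255 CPM against 7.55 CPM in its highest tissue, the adrenal. miR-873-5p had a brain mean of 183 CPM and at most 4.59 CPM in any non-neural library, and was 17.2 times higher in the cerebrum than in the cerebellum. miR-129-5p (763 CPM), miR-383-5p (297 CPM), miR-488-3p (439 CPM), miR-598-3p (415 CPM), miR-330-5p (1029 CPM) and miR-218a-5p (1520 CPM) were also above every tissue in the mean of the brain. For miR-218a-5p the kidney cortex (label Cortex) reached 238 CPM.

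Other members were higher in the brain without standing above every tissue with upper quartile scaling. miR-153-3p had 616 CPM in the brain and 238 CPM in the pancreas, its highest other tissue. The call above every tissue was missing for it with TMM too but held with library totals. The pancreas was also the highest other tissue of miR-7a-1-3p, at 19.2 CPM beside 40.0 CPM in the brain, and of miR-153-5p (3.78 CPM), which was above every tissue. miR-7a-5p, of neurons and endocrine cells, had 167 CPM in the brain and 110 CPM in the testis. miR-708-3p and miR-708-5p reached 57.8 and 64.8 CPM in the ovary, beside 209 and 136 CPM in the brain. Both arms of miR-874 were highest in the kidney cortex (label Cortex), at 30.9 and 7.42 CPM, and higher in the brain at 64.8 and 11.2 CPM. miR-935 had 46.0 CPM in the brain and 19.99 CPM in the testis.

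The activity-linked miR-132 and miR-212 showed the steepest gradient between regions among the 83 names. miR-132-3p lay between 176 and 7082 CPM in the brain (median 1151) and between 0 and 278 CPM elsewhere (median 11.5). Some cerebellar libraries were below the highest ovary library, so the groups overlapped. The cerebrum held 5736 ± 845 CPM and the cerebellum 266 ± 47.4 CPM (SD, n = 10 each), and miR-212-3p followed with 954 ± 144 and 27.9 ± 6.36 CPM. The log2 fold changes were 4.44 ± 0.0814 for miR-132-3p and 4.28 ± 0.0913 for miR-212-3p (SE), and the ovary was the highest other tissue for both. All 6 names of the list were higher in the brain and 4 of them above every tissue, beside 29.6% and 6.34% of all names. miR-134-5p and miR-134-3p, of the imprinted cluster described below, were not above every tissue.

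The oligodendrocyte miRNAs were highest in the brainstem, a region rich in myelin. miR-219a-2-3p ranged from 244 to 3396 CPM in the brain (median 821) and from 0 to 18.4 CPM elsewhere (median 0.277). The groups did not overlap, and its log2 fold change was 8.40 ± 0.201 (SE, edgeR adjusted p = 8.71e-93). It stood at 2627 ± 534 CPM in the brainstem and at 313 ± 38.3 CPM in the cerebellum (SD, n = 10 each). miR-338-3p held 8770 ± 1198 CPM in the brainstem and 2037 ± 363 CPM in the cerebellum, and its highest other tissue was the testis at 410 ± 146 CPM (SD, n = 5). Of the 5 names of this list 4 were above every tissue in each region, beside 3.59% of all names. The exception, miR-219a-1-3p, had 4.44 CPM in the brain and 20.9 CPM in the adrenal, and the sign of its difference turned with the scaling (log2 fold change -0.86, 0.08 with TMM and 1.09 with library totals).

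The largest log2 fold change belonged to a group of X-linked miRNAs. miR-764-3p, miR-1912-3p, miR-1298, miR-3552 and both arms of miR-448 lie inside the RefSeq span of Htr2c, the gene of the serotonin receptor 2C, which is known for strong expression in the choroid plexus. Of the 520 names tested with a RefSeq match, 6 lay in Htr2c. All 6 were above every tissue, as were 60 of the 520. This locus was singled out after its values were seen. In GRCr8 miR-764-3p is at chrX:115490702-115490724, miR-1298 at chrX:115556987-115557008 and miR-448-3p at chrX:115642026-115642046, all on the plus strand.

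miR-448-3p ranged from 1.97 to 663 CPM in the brain (median 69.2) and from 0 to 1.53 CPM elsewhere (median 0). All brain libraries were above all others, and the log2 fold change was 9.23 ± 0.254 (SE, edgeR adjusted p = 3.80e-74). The fold itself depends on the few counts outside the brain. miR-764-3p lay between 0.683 and 129 CPM in the brain and at 0.496 CPM or less elsewhere. miR-1298 lay between 10.7 and 3773 CPM against a highest value of 18.6 CPM, so a few cerebellar libraries were within the range of the testis. miR-1264-3p and the predicted name chrX_48034-3p;mir-1298-pre were also above every tissue, with brain means of 6.91 and 62.6 CPM.

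Within regions these miRNAs varied widely between rats, together with miR-204-5p, a miRNA of the choroid plexus and the eye. Among the 10 cerebellum libraries 5 held miR-448-3p at 90.0 to 266 CPM and 5 at 1.97 to 6.07 CPM. The same libraries held miR-204-5p at 11780 to 18475 CPM and at 6840 to 9265 CPM. The hippocampus of rat 8 had the highest value of its region for miR-448-3p (412 CPM), miR-1298 (1904 CPM) and miR-204-5p (9214 CPM). miR-204-5p itself lay between 1523 and 25458 CPM in the brain and reached 3379 CPM in the testis, so that the groups overlapped, with a log2 fold change of 3.39 ± 0.0869 (SE, edgeR adjusted p = 6.57e-88). Of the 4 names of the choroid plexus and eye list all 4 were higher in the brain (median log2 fold change 3.25). Only 1 of them, miR-204-5p, was above every tissue. Of all names 29.6% were higher and 6.34% above every tissue. The part of choroid plexus in the dissected tissue was not tested.

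**Figure D2:**
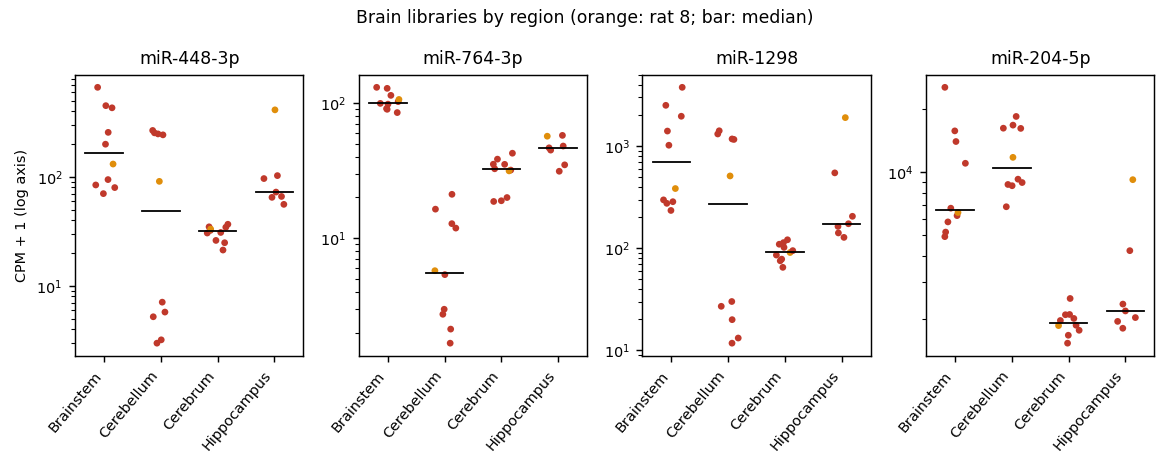
CPM plus 1 (log axis) of miR-448-3p, miR-764-3p, miR-1298 and miR-204-5p in each brain library by region, with rat 8 in orange and a bar at each median. Cerebellum libraries fall into a higher and a lower set for miR-448-3p and miR-1298, and the hippocampus of rat 8 is the highest of its region for these and for miR-204-5p.

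Members of 1 seed family were called in opposite directions. miR-92b-3p was above every tissue, while miR-92a-3p, miR-25-3p and miR-363-3p, which share the seed AUUGCAC, were below every tissue and miR-32-5p was lower with upper quartile scaling. The calls below every tissue held with TMM and ended with library totals for all 3. miR-92b-3p ranged from 675 to 18096 CPM in the brain (median 10732) and from 2.03 to 479 CPM elsewhere (median 25.2). The groups did not overlap, the hippocampus was the highest region and the cerebellum the lowest, and the log2 fold change was 5.72 ± 0.104 (SE, edgeR adjusted p = 3.65e-111). miR-92a-3p, of the miR-17-92 cluster, lay between 310 and 2870 CPM in the brain (median 1815) and between 343 and 24473 CPM elsewhere (median 3191), with the highest values in whole blood. Its range overlapped, and its log2 fold change was -3.12 ± 0.0893 (SE) and -1.15 with library totals.

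miR-25-3p differed less, with a median of 830 CPM in the brain and 878 CPM elsewhere, and its log2 fold change of -2.30 became -0.34 with library totals. miR-363-3p lay between 0.973 and 12.2 CPM in the brain and reached 171 CPM in the testis. For miR-32-5p the log2 fold change was -2.09, and -0.16 with library totals, and the differences of the 10 rats had an exact sign-flip p of 0.277 (permutation test). For the seed GUAAACA the result depended on the scaling. miR-384-5p lay between 307 and 819 CPM in the brain (median 540) and at 26.2 CPM or less elsewhere with no overlap of libraries, a log2 fold change of 6.44 ± 0.109 (SE, edgeR adjusted p = 4.49e-116). The abundant miR-30a-5p, miR-30c-5p and miR-30e-5p of the same seed were called lower with upper quartile scaling (log2 fold changes of -1.19, -0.51 and -0.93). With TMM the values were -0.24, 0.44 and 0.02, with library totals they were 0.78, 1.45 and 1.04, and the mean CPM of each was higher in the brain. Both activity-linked arms miR-132-3p and miR-212-3p also share a seed, and there the calls were the same.

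**Figure D3:**
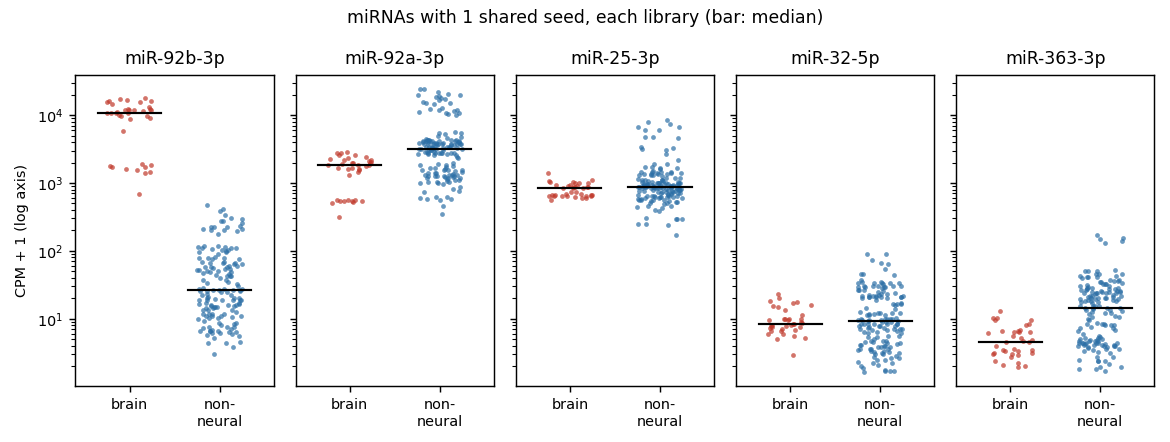
CPM plus 1 (log axis) of 5 miRNAs that share a seed, in the 37 brain libraries (red) and the 158 non-neural libraries (blue), with a bar at each median. miR-92b-3p is separate between the groups, and the other 4 overlap with medians below those of the non-neural libraries.

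Many names that were higher in the brain had the adrenal as their highest other tissue. It was so for 127 of the 387 higher names (32.8%) and for 25 of the 83 above every tissue (30.1%), beside 153 of all 1309 names (11.7%). The testis took 27 of the 83 (32.5%), beside 468 of all names (35.8%). The 3 parts of the small intestine took 9 of the 387 (2.33%), beside 97 of all names (7.41%).

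The Dlk1-Dio3 cluster is an imprinted locus whose miRNAs are transcribed from the maternal chromosome. Of its 80 names tested, 79 were higher in the brain and 7 above every tissue, beside 29.6% and 6.34% of all names. The count above every tissue was thus near the share of all names. The median log2 fold change of the cluster was 4.48. The adrenal was the highest non-neural tissue for 78 of the 80, beside 11.7% of all names. miR-127-3p, the most abundant in CPM, ranged from 56473 to 205676 CPM in the brain (median 138968) and from 8.95 to 96784 CPM elsewhere (median 581). Adrenal libraries, at 75229 ± 18304 CPM (SD, n = 9), were above the cerebellum libraries, at 65868 ± 7423 CPM (SD, n = 10), in the mean. Its log2 fold change was 5.55 ± 0.120 (SE), and those of miR-434-3p and miR-410-3p were 5.66 and 4.72.

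Part of the cluster reached the brain level in the adrenal. Among the names called higher with at least 10 CPM in the brain, 35 had a tissue whose mean exceeded the brain mean, 17 of them from this cluster. The 8 with the largest log2 fold changes were all of it and all had the adrenal highest. miR-411-5p held 8505 CPM in the brain and 10881 ± 2374 CPM in the adrenal, miR-379-5p 162 and 176 ± 44.2 CPM, and miR-136-5p 695 and 797 ± 277 CPM (SD, n = 9). miR-540-3p had 129 CPM in the adrenal and 66.2 CPM in the brain, and miR-337-5p 161 and 113 CPM. The last 3 of the 8, miR-411-3p, miR-382-3p and miR-540-5p, stood at 150, 32.02 and 20.2 CPM in the adrenal and at 136, 31.5 and 15.8 CPM in the brain.

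**Figure D4:**
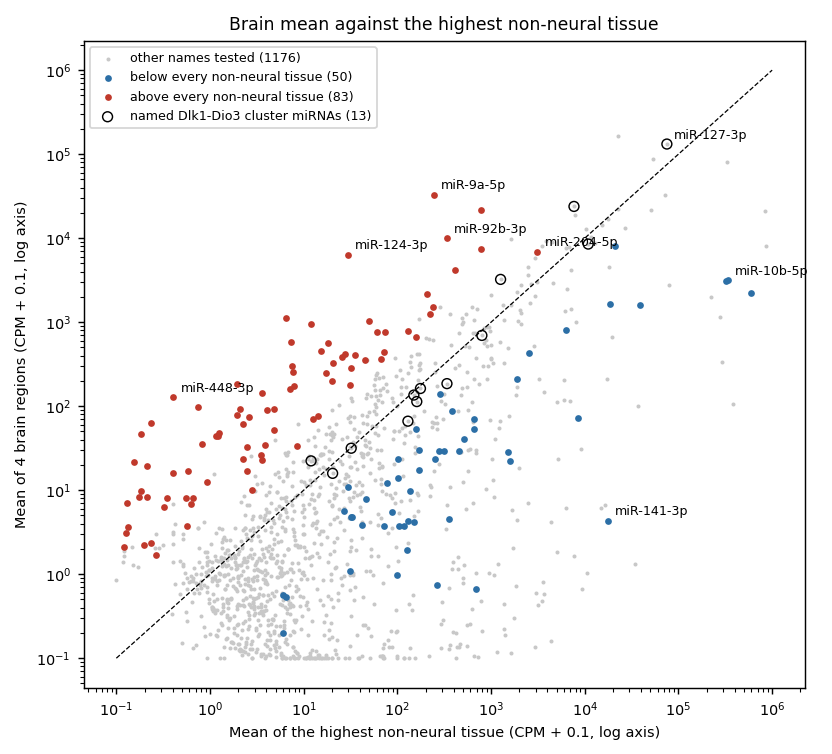
Mean of the 4 brain regions against the mean of the highest non-neural tissue for each of the 1309 names tested, both in CPM plus 0.1 on log axes, with a dashed line of equality. Names above every tissue (83, red) lie above the line, names below every tissue (50, blue) below it. Of the 13 named miRNAs of the Dlk1-Dio3 cluster (circles) 9 lie below the line and 4 above it. Of these 9, 8 were named because another tissue exceeds the brain mean, so their place was set in advance.

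Among the 83 names the cerebellum was the lowest region for 61, beside 669 of all 1309 names. The brainstem was the highest for 31, the cerebrum for 23, the hippocampus for 21 and the cerebellum for 8, beside 507, 255, 341 and 206 of all names in the same order, so that the brainstem count was near its share of all names. The ratio of the highest to the lowest regional mean had a median of 5.00 and ran from 1.21 to 34.3, with the highest values for miR-212-5p and miR-212-3p. In 14 hairpins both arms were above every tissue, among them miR-124, miR-9a, miR-132, miR-137, miR-338 and miR-873.

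A set of miRNAs was lower in the brain than in each of the non-neural tissues with upper quartile scaling. Of the 1309 names, 50 were below every tissue (3.82%), and in 13 each region was below each tissue (0.993%). Scaling decided most of these calls, since 14 of the 50 remained with TMM and 1 with library totals. Against the mean of all tissues the 50 were all lower with TMM and 40 were lower with library totals. In CPM, 0 names had every brain library below every non-neural library (0%), while 86 had every brain library above (6.57%).

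The lowest were miRNAs of the HOX gene clusters. Of 15 names 6 were lower under each of the 3 scalings and 4 below every tissue, beside 10.4% and 3.82% of all names. With upper quartile scaling alone 6 were lower and 9 not called, near the 39.1% of all names that were lower. miR-10a-5p lay between 72.6 and 15993 CPM in the brain (median 326) and between 66.1 and 415407 CPM elsewhere (median 27402), a log2 fold change of -7.38 ± 0.184 (SE, edgeR adjusted p = 6.85e-90). The libraries overlapped in CPM, with the brainstem at 11687 ± 4214 CPM and whole blood at 152 ± 120 CPM (SD, n = 10 each). The hippocampus held 122 ± 59.6 CPM (SD, n = 7). miR-10b-5p had the same order of regions, from 11563 CPM in the brainstem to 94.5 CPM in the hippocampus, and was highest in the adrenal at 335318 ± 39455 CPM (SD, n = 9). miR-196b-5p was at 0.559 CPM in the brain and at 696 CPM in the uterus.

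Epithelial miRNAs followed. miR-141-3p, of the miR-200 family, lay between 1.37 and 12.8 CPM in the brain (median 3.05) and between 0.518 and 19750 CPM elsewhere (median 248), highest in the pancreas, with a log2 fold change of -7.01 ± 0.159 (SE). Of 15 names in the epithelial list 10 were lower and 0 higher under each of the 3 scalings, beside 10.4% and 29.6% of all names. miR-203a-3p of stratified epithelium had 22.2 CPM in the brain and 1601 CPM in the ileum, and miR-203b-3p 0.649 CPM in the brain and 266 CPM in the kidney cortex. miR-214-3p, of mesenchyme, was highest in the uterus at 352 CPM, beside 4.46 CPM in the brain.

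Markers of other cells spanned a wide range of levels in the brain. All 4 names of the smooth muscle list were lower under each of the 3 scalings, beside 10.4% of all names, and miR-143-3p had a brain mean of 21236 CPM. In the leukocyte list 7 of 10 were lower with upper quartile scaling, beside 39.1% of all names. Of these 5 were below every tissue, beside 3.82% of all names, among them miR-142-5p (209 CPM in the brain). The 2 higher names were miR-146b-5p and miR-146b-3p. In CPM the list was not low, since its sum had a median of 3132 in the brain and 1630 elsewhere. miR-150-5p, not called, had a brain mean of 1409 CPM and a mean of 470 CPM over the other tissues. miR-223-3p of granulocytes had 9.70 CPM in the brain and 136 CPM in the uterus, and miR-147, of activated macrophages, 0.890 CPM in the brain and 98.0 CPM in the ileum. The summed CPM of the blood and erythroid list ran from 79.2 to 1211 in the brain and from 8.79 to 17463 elsewhere. Of its 6 names 5 were lower but 1 under all 3 scalings, beside 39.1% and 10.4% of all names. Both arms of the endothelial miR-126a were called lower, and the log2 fold change of miR-126a-5p was -1.52 and turned to 0.41 with library totals.

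The striated muscle, gut, kidney and liver, pancreas and endocrine, and sensory cluster lists held 0 names called higher with upper quartile scaling. With that scaling 39.1% of all names were lower. Of the striated muscle list 9 of 16 were lower, of the gut, kidney and liver list 6 of 11, of the pancreas and endocrine list 3 of 7 and of the sensory cluster 3 of 6, the last 2 near the share of all names. For miR-182 and miR-183-5p of the sensory cluster the brainstem was the highest region. Their ratios of the highest to the lowest regional mean were 60.6 and 71.1. miR-183-5p reached 1066 CPM in a brain library, beside 972 CPM at most in a non-neural library. For miR-182 these values were 6521 and 8755 CPM. With library totals the striated muscle list had 1 higher and 5 lower, and the pancreas and endocrine list 3 higher and 1 lower. Of the 12 names of the gonad list 7 were higher in the brain than in the mean of the tissues, beside 29.6% of all names. The most abundant name of that list, miR-34c-5p, had 1162 CPM in the brain but 278169 ± 46600 CPM in the testis (SD, n = 5). All 5 names of the rodent miR-344 family were higher, beside 29.6% of all names. The adrenal was the highest other tissue for 4 of them, and miR-344b-1-3p was the most abundant (79.1 CPM in the brain, 1.82 CPM in the adrenal).

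**Figure D5:**
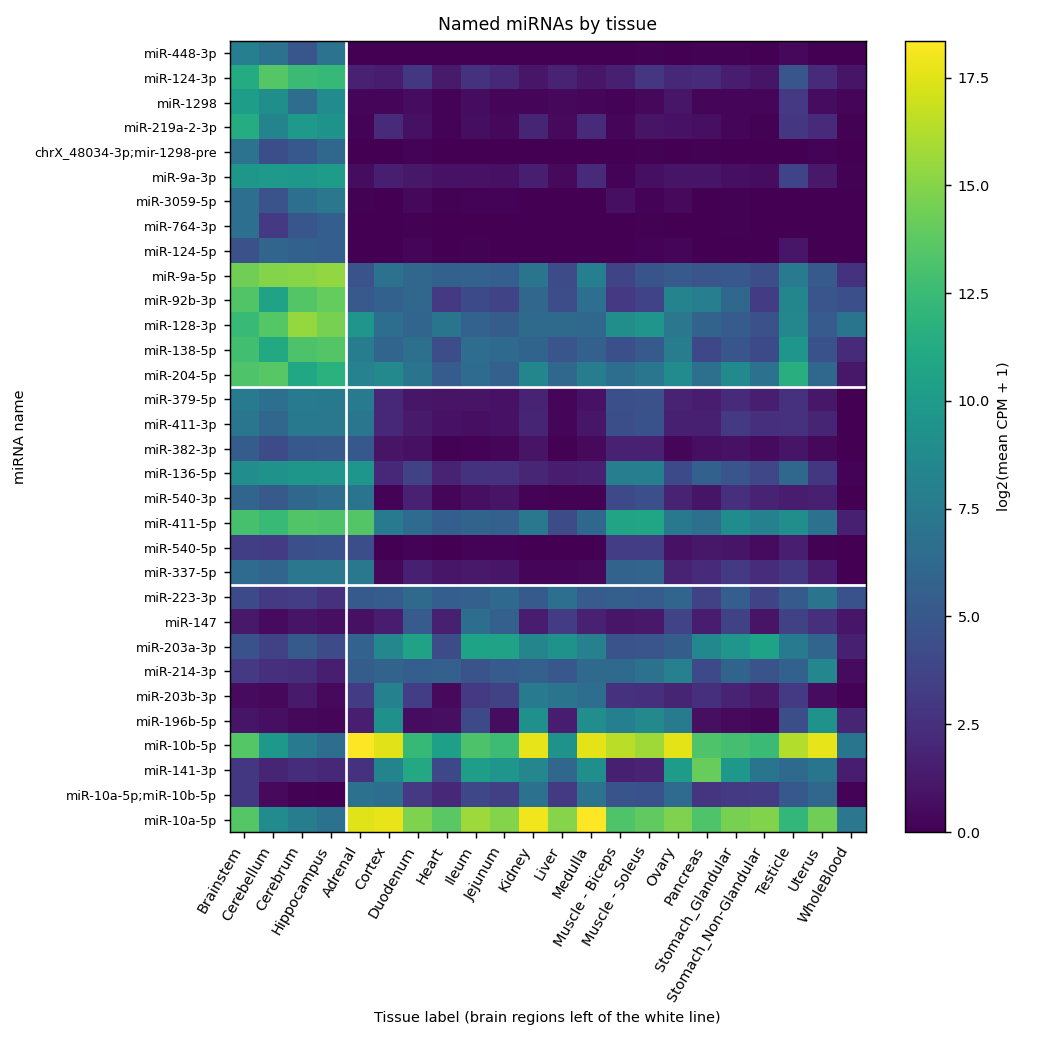
log2 of mean CPM plus 1 by tissue label for 32 named miRNAs, with the 4 brain regions left of the vertical white line. The top block (14 above every tissue) is brighter in the brain than in the other tissues, the middle block (8 of the Dlk1-Dio3 cluster) is as bright in the adrenal as in the brain, and the bottom block (10 below every tissue) is darker in the brain than in most tissues, with miR-10a-5p and miR-10b-5p brightest in the brainstem among the regions.

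Differences were also taken rat by rat, as the mean log2 of CPM plus 1 over the brain libraries of a rat minus that over its non-neural libraries. For miR-124-3p the difference was 10.77 ± 0.17 (SD, n = 10 rats), higher in 10 of 10 rats, with an exact sign-flip permutation p of 0.00195 (two-sided), the smallest that 10 rats allow. Of 135 named miRNAs, many of them picked for large differences in these data, 126 had this p. The count takes no account of the direction of the edgeR call. miR-126a-3p was called lower there (log2 fold change -1.58) but was higher in 10 of 10 rats, with a difference of 0.48. miR-30a-5p was likewise called lower (-1.19) and was higher in 10 of 10 rats (0.74). The same differences were compared between the sexes with limma, 5 female against 5 male rats, over the tissues taken from both sexes. At an adjusted p under 0.05, 0 of 1309 names differed (0%), the smallest adjusted p was 0.119, and 64 names had an unadjusted p under 0.05 (4.89%).

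The deposited sequences of each name carried a further difference. Adenosine deaminases of the ADAR family, which are active in the brain, turn adenosine in double-stranded RNA into inosine, which is read as guanosine. In the counts of 346 names with a RefSeq sequence and at least 1000 brain counts, single-base differences from RefSeq in the seed were counted among sequences with the same first base. Of 6222 pairs of a name and a substitution, 614 were A-to-G. In the brain 10 pairs reached 5% of the counts of their name, and all 10 were A-to-G. The pattern was found after the values were seen and was not tested, and reads of related miRNAs may be exchanged within a family. The 5 pairs described here are shown with the changed base in capitals, counted from 1 at the 5′ end.
miR-376b-3p: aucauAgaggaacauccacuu
miR-376c-3p: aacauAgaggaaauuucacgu
miR-3099: uaggcuAgaaagagguugggga
miR-411-5p: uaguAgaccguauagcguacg
miR-379-5p: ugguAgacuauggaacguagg

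A6G made up 49.0% of miR-376b-3p counts in the brain and 13.9% elsewhere, and 42.4% and 2.09% of miR-376c-3p counts. By library the share in miR-376c-3p ran from 20.5% to 68.6% in 31 brain libraries and from 1.42% to 4.25% in 9 non-neural libraries with at least 100 counts, so the ranges did not meet. A7G made up 47.5% of miR-3099 counts in the brain. For miR-411-5p the share of A5G was 10.4% in the brain and 0.490% in the adrenal, although both tissues held this miRNA at a like level. Over single libraries it ran from 4.22% to 16.1% in the brain and from 0% to 15.7% in 137 non-neural libraries, so the ranges overlapped. For miR-379-5p it was 8.58% in the brain and 0.0675% in the adrenal. The share was higher in the brain than in the non-neural libraries for all 9 pairs that had enough counts on both sides. These pairs were chosen for a brain share of at least 5%, with no like demand elsewhere. The choice favoured that direction, so the count is a description.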

How the data were processed

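Small RNA libraries were made from RNAlater-preserved tissue of Sprague Dawley rats, with some RNAs extracted again, and sequenced on a HiSeq2000. The deposited values are counts per miRNA name and per sequence in each run, not normalized. The authors trimmed adaptors with cutadapt 1.4.1 (submitters' processing notes), aligned reads to miRBase precursors with miRDeep2 and predicted further miRNAs on the rat genome. Some names join several miRNAs or a predicted one.

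Here 458 runs were summed to 215 libraries, without 14 runs that repeat a lane. edgeR 4.0.16 (R 4.3.3) fitted quasi-likelihood models with upper quartile scaling and a filter on low counts by tissue, leaving 1309 of 7517 names with a count. A name above every tissue takes the largest of its 18 p-values. DESeq2 1.42.0 and limma 3.58.1 gave alternatives, and Python 3.11.15 (pandas 2.3.3, scipy 1.17.1, matplotlib 3.10.9) the rest. The edgeR script was tested on simulated data. Sequences matched RefSeq for 115 of 135 named miRNAs. Precision is limited by depth, lowest in the testis, and counts without molecular identifiers cover counting error only.

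The members and lists were chosen with earlier results of these data known. Named are all members of the neuron-enriched, activity-linked and oligodendrocyte lists, up to 4 members of each other list, the 10 largest and 5 most abundant names above every tissue (at least 10 CPM), the 10 lowest below every tissue, and the 8 largest higher names that another tissue exceeds, and miRNAs singled out in the text. Rat numbers pair the libraries because the labels give 1 number to an animal. After removal of tissue means the median correlation was 0.0130 over 1808 pairs of different tissues of a rat. It was -0.00779 over 16293 pairs of different rats. Both values are very small, so the pairing rests on the labels alone.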

Additional observations from a re-analysis of the deposited data

Results flagged for a closer look

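In 60 groups of brain libraries (15 miRNAs in each of 4 regions), 11 had a library set apart from the rest by the gap rule of Dixon. For normal values in independent groups chance gives this in about 1 group of 20. CPM values need not be normal and the groups reuse the same libraries, so that rate is only a rough guide. In the hippocampus the library of rat 8 was highest for miR-448-3p (412 CPM, next 102), miR-1298 (1904, next 546), chrX_48034-3p;mir-1298-pre (115, next 76.6) and miR-204-5p (9214, next 4218). In the brainstem the library of rat 7 was highest for miR-204-5p (25458 CPM), and that of rat 9 was highest for miR-128-3p (9799 CPM) and lowest for miR-219a-2-3p (1335 CPM). The lowest miR-92b-3p values of the brainstem (5881 CPM) and the cerebellum (675 CPM) were both from rat 11. The cerebrum of rat 9 held 18611 CPM of miR-9a-5p against a median of 37129 CPM in that region. The cerebellum of rat 10 held 239 CPM of miR-211-5p, and the next library held 7.25 CPM.

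Libraries outside the comparison also carried the neuronal miRNAs. miR-124-3p stood at 5311, 5627 and 4113 CPM in the libraries labelled Duodenum of rats 2, 4 and 7. In the 10 dorsal root ganglion libraries the median was 382 CPM for miR-124-3p and 2306 CPM for miR-9a-5p, above the highest non-neural library (45.2 and 315 CPM) and below the lowest brain library (1908 and 18611 CPM).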

How the results depend on the processing

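Among 3765 values of the 135 named miRNAs under alternatives, 3687 kept direction and call, counting the call against the mean of all tissues, and the 47 named miRNAs above every tissue stayed higher in that mean under each alternative that gave a value. The call above every tissue itself was counted only over all names. A replicate block for the rat gave 389 higher and 514 lower names, 84 above and 50 below every tissue, and changed no other call. With library totals 701 names were higher and 136 lower, 210 above and 1 below every tissue, 101 above and 0 below in every region. TMM gave 133 above and 14 below every tissue and 1 below in every region. limma on rats gave 632 higher and 323 lower. With the 10 left-out libraries the counts above and below every tissue were 21 and 14, and 0 and 0 in every region. Without the adrenal 139 were above every tissue and 91 in every region. Runs of flow cell D1GBMACXX alone gave 297 lower, 19 below every tissue and 6 in every region; C2BUMACXX gave 26 and 4, and D2C4RACXX 54 above every tissue and 7 below in every region. Names below in every region numbered 8 without a filter, 31 without whole blood, 22 without testis, 24 without brainstem and 25 without cerebellum. Without single rats the names above every tissue numbered 77 to 82, below 42 to 50, higher 376 to 407 and lower 485 to 512, above in every region 41 to 47 and below 9 to 14, and 0 to 1 differed by sex (1 without rat 3). The cause of these moves was not tested.

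The sign turned for 14 named miRNAs. With library totals and with limma the log2 fold changes were 0.36 and 0.48 for miR-126a-3p, 0.41 and 0.52 for miR-126a-5p, 0.84 and 0.089 for miR-206-3p, 0.86 and 0.58 for miR-217-5p, 0.78 and 0.74 for miR-30a-5p and 0.50 and 0.43 for miR-486-5p. With library totals alone they were 0.15 for miR-216a-5p and 0.11 for miR-499-5p, and miR-216b-5p had 1.14 there and 1.10 with DESeq2. With TMM, library totals, DESeq2 and limma they were 0.93, 1.94, 0.92 and 1.95 for miR-150-5p, 0.083, 1.09, 0.082 and 0.80 for miR-219a-1-3p, 0.44, 1.45, 0.43 and 1.41 for miR-30c-5p, 0.019, 1.04, 0.0090 and 1.00 for miR-30e-5p, and 0.37, 1.38, 0.37 and 0.87 for miR-486-3p.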

Other observations

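The sequences counted under miR-10b-5p did not carry the seed of its RefSeq entry. Only 0.00868% of its brain counts and 0.00393% of its non-neural counts had the seed CCUGUAG, while 85.6% and 88.1% had ACCCUGU, the seed of miR-10a-5p. Of 74 named miRNAs with at least 1000 counts on both sides, 66 had the same most counted sequence in the brain and elsewhere, and the median share of counts with the RefSeq seed was 95.0% on both sides.

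In the dorsal root ganglion libraries miR-138-5p, miR-204-5p and miR-10a-5p had medians of 7504, 8165 and 115355 CPM. For miR-138-5p the ganglion lay within the range of the brain, and for miR-10a-5p its lowest library (94417 CPM) was above the highest brain library (15993 CPM).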
